A study of Mus musculus with 4 samples.

Results

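The transcription factors that guide blood progenitors into granulocytes were measured in lung myeloid-derived suppressor cells (MDSCs), and 10 of them are described here: Cebpa, Cebpb, Cebpd, Cebpe, Gfi1, Spi1, Klf2, Klf4, Id2 and Runx1. They were taken by symbol from the 54532 genes of the count table. Each of the 10 had at least 50 counts in every library, so that all of them passed the minimum of 10 counts in 1 library, as 16369 genes did. CD11b+Ly6g+ cells were sorted from the lungs of C57BL/6 mice aged 6 to 8 weeks in which a pre-metastatic niche (PMN), the tissue state that precedes arriving tumor cells, had been induced. All 4 groups received medium conditioned by melanoma cells (MCM) intraperitoneally at 300 μL per mouse for 10 days, and 100000 B16F10 mouse melanoma cells through the tail vein on day 7. The Ctrl mice were untreated PMN model mice, and the TP5, sFD17 and FR17 groups received the named peptide subcutaneously at 40 μM/kg each day beginning on day 3, before the lungs were taken on day 10. TP5 is thymopentin, an immunomodulatory pentapeptide. FR17 carries TP5 on a self-assembling backbone through a linker that MMP2 cleaves, and sFD17 is built in the same way with a scrambled TP5, so it keeps the assembly and lacks the TP5 sequence. Each group is 1 library in which cells of 10 to 12 mice were pooled, so the spread between mice is not measured, no comparison has a replicate check, and no healthy lung was analysed here.

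Granulocytes arise in steps that these factors control. PU.1, the product of Spi1, and RUNX1 open the myeloid program, C/EBPα commits progenitors to the granulocyte and monocyte branch, and GFI1 and C/EBPε then favor neutrophil maturation, with C/EBPε driving the genes of the secondary granules. C/EBPβ and C/EBPδ serve the accelerated granulopoiesis of infection and inflammation, and C/EBPβ is known as a factor required by MDSCs. KLF4 favors the monocyte branch, KLF2 restrains inflammatory activation of myeloid cells, and ID2 has no DNA-binding domain and holds other helix-loop-helix factors away from DNA.

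The 4 libraries held from 15543071 to 19638228 counts. Both sorting markers were present in each, with 5711 to 6924 counts of Itgam, the gene of CD11b, and 1234 to 2081 counts of Ly6g. The libraries did not hold neutrophil RNA alone. The summed level of 21 neutrophil markers relative to Ctrl was 1.02 with TP5, 1.33 with sFD17 and 0.813 with FR17, and that of 18 macrophage markers was 0.751, 0.375 and 1.24 in the same order, with none of either list at 0. The sFD17 library therefore stood apart with few macrophage transcripts, and in sorted bulk cells fewer cells of a type and less RNA per cell cannot be told apart. Scaling also matters. Levels are in CPM, counts scaled to a common library total, after TMM scaling, which sets the typical gene equal between libraries, with a median log2 fold change against Ctrl of 0.00, −0.03 and 0.02 over all tested genes for TP5, sFD17 and FR17. By library size alone that median stood at 0.05, −0.23 and 0.26, and by neutrophil markers at −0.03, −0.42 and 0.32. The shifts between scalings are common to all genes of a library, so the directions of the 10 factors are given below with a value under another scaling where they flip. Intervals are 95% intervals of the pair of counts and cover counting error only.

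Per kilobase of exon, Cebpb was the most abundant of the 10 factors in every library, with 2287 CPM per kilobase in Ctrl, 1800 with TP5, 2601 with sFD17 and 1504 with FR17. Spi1, at 237 to 374, and Klf2, at 173 to 269, came next and exchanged places in FR17. Klf4 was the fourth in all 4 libraries, at 68.2 to 91.2 CPM per kilobase. Below it came Cebpa, Cebpd, Id2 and Cebpe, which lay between 22.3 and 74.6 CPM per kilobase and changed order between libraries. Cebpa moved from the fifth place in Ctrl, TP5 and FR17 to the seventh in sFD17. Runx1, at 9.35 to 11.3, and Gfi1, at 1.86 to 1.97 CPM per kilobase, closed the order everywhere. Among the 4 C/EBP genes, Cebpb made up 94.1% of the summed level per kilobase in Ctrl, 93.0% with TP5, 95.2% with sFD17 and 91.6% with FR17.

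**Figure D1:**
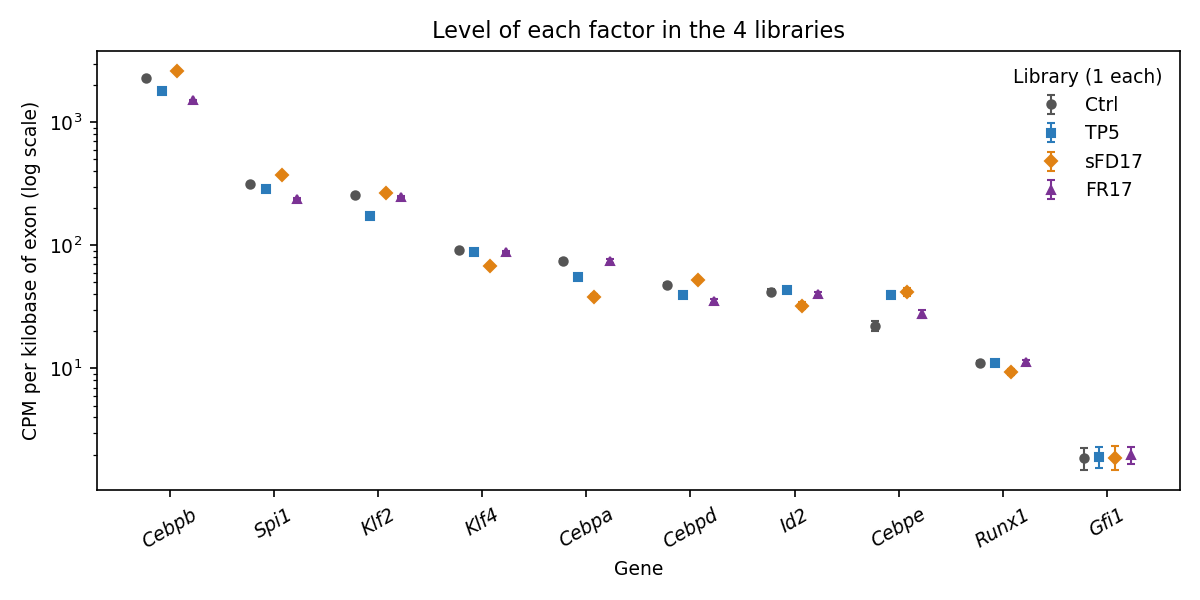
Level of each factor in CPM per kilobase of exon on a log axis, with 1 point for each library and bars for the 95% counting interval. Cebpb sits above the other factors in each library, and Gfi1, at 1.86 to 1.97, sits below them with nearly level points.

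No factor was past a 2-fold change in any of the 6 comparisons among the libraries, that is in none of 60 values. The background at 2-fold was 8.18% of the tested genes in TP5 against Ctrl, 11.8% in sFD17 against Ctrl and 7.50% in FR17 against Ctrl. It was 22.1% in FR17 against sFD17, 9.92% in FR17 against TP5 and 12.4% in sFD17 against TP5. At 1.5-fold, 1 of 10 factors was past the limit with TP5 (Cebpe), 2 with sFD17 (Cebpa and Cebpe) and 1 with FR17 (Cebpb), where 20.8%, 29.0% and 22.7% of all tested genes were. FR17 against sFD17 had 4 factors past 1.5-fold (Cebpa, Cebpb, Cebpe and Spi1), beside 46.0% of all tested genes. FR17 against TP5 had 0, beside 24.5%, and sFD17 against TP5 had 1 (Klf2), beside 31.8%. With TMM scaling the share of factors was in no comparison above the share in the background. The same held beside 929 tested transcription factor genes. Of these, 15.8%, 30.0%, 19.5%, 47.8%, 23.7% and 27.4% were past 1.5-fold, in the order in which the comparisons are given. By library size the 1.5-fold calls of Cebpb in FR17, of Cebpb, Cebpe and Spi1 in FR17 against sFD17 and of Klf2 in sFD17 against TP5 ended, while Klf4 and Id2 passed that limit in sFD17 against Ctrl, Klf4, Id2 and Runx1 in FR17 against sFD17, Cebpa and Klf2 in FR17 against TP5, and Cebpa, Klf4 and Id2 in sFD17 against TP5. By library size 1, 4, 0, 4, 2 and 3 factors were thus past 1.5-fold, in the order in which the 6 comparisons are given, beside 21.0%, 32.9%, 28.4%, 56.6%, 25.8% and 39.1% of all tested genes, so that only in sFD17 against Ctrl was the share of factors the larger one. The 3 comparisons with Ctrl share that library, as the others share theirs, so their values are given side by side.

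**Figure D2:**
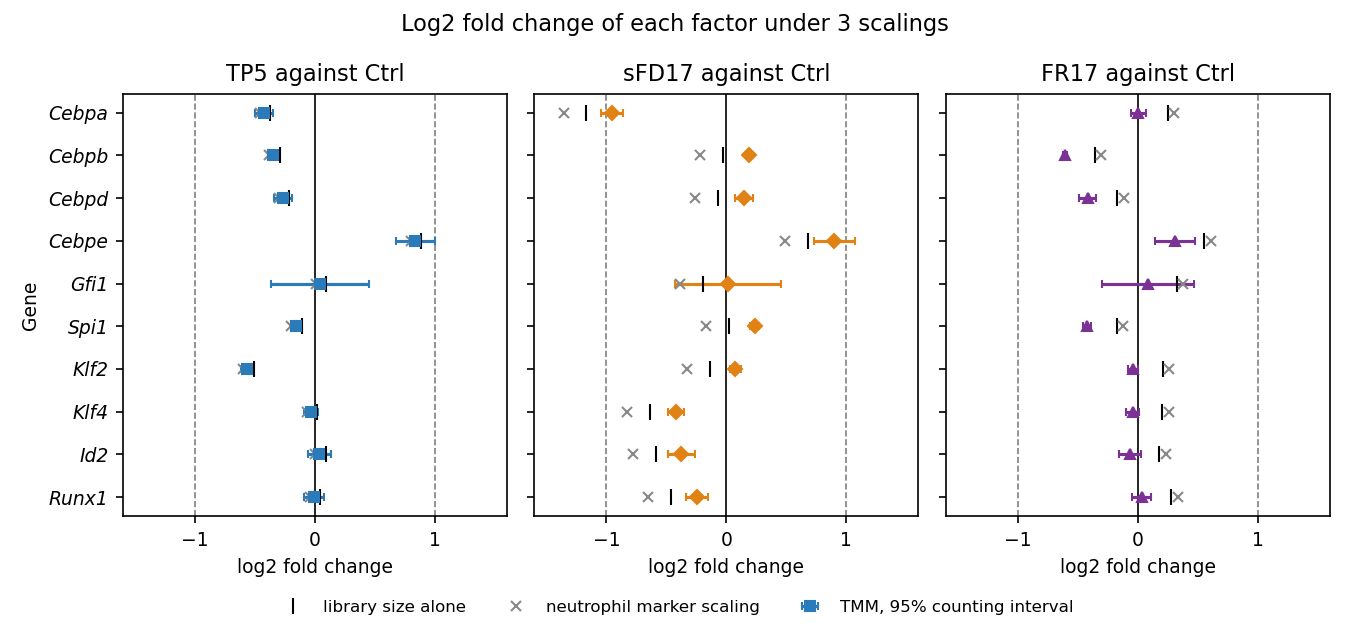
Log2 fold change of each factor in the TP5, sFD17 and FR17 libraries against Ctrl, with the 95% counting interval after TMM scaling, the value by library size alone (vertical tick) and the value by neutrophil marker scaling (cross). Dashed lines mark 2-fold, and the TMM points of all 10 factors lie between them, with Cebpa at −0.95 and Cebpe at 0.90 in sFD17 farthest out.

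Cebpe encodes the C/EBP factor of late neutrophil maturation and lies at chr14:54710360-54712174 on the minus strand of GRCm38. It had 467 counts in Ctrl, 866 with TP5, 681 with sFD17 and 788 with FR17, or 27.6, 49.4, 51.6 and 34.3 CPM. All 3 peptide libraries were thus above Ctrl, and the counting intervals of Ctrl and FR17 did not overlap. The log2 fold change was 0.83 with TP5 (0.67 to 1.00), 0.90 with sFD17 (0.73 to 1.07) and 0.31 with FR17 (0.15 to 0.48). It stayed above 0 in each peptide library under all 4 scalings, and the order of the libraries depended on the scaling. By library size sFD17 was at 0.68 and FR17 at 0.56, and by neutrophil markers sFD17 was at 0.49, under the 1.5-fold limit, and FR17 at 0.61, above it. Among 692 transcription factor genes with at least 50 counts in 1 library, this was the eighth highest change in TP5 and the fifteenth in sFD17, and rank 119 in FR17. The summed level of 10 cycling and immature cell markers was 1.53, 1.23 and 1.35 relative to Ctrl in TP5, sFD17 and FR17, with 9, 6 and 9 of the 10 higher, and their part in the Cebpe values was not tested.

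Cebpa, the factor that commits progenitors to the granulocyte and monocyte branch, lies at chr7:35119293-35121928 on the plus strand. Its counts were 3308 in Ctrl, 2561 with TP5, 1337 with sFD17 and 4514 with FR17, or 196, 146, 101 and 197 CPM. Ctrl and FR17 were level, TP5 was lower and sFD17 was lowest, with no overlap of the counting intervals among these 3 levels. The log2 fold change against Ctrl was −0.42 with TP5 (−0.50 to −0.35), −0.95 with sFD17 (−1.04 to −0.86) and 0.01 with FR17 (−0.06 to 0.07). In sFD17 it was −1.17 by library size and −1.36 by neutrophil markers, both past 2-fold. The FR17 value was −0.0017 with DESeq2 size factors and 0.25 by library size. The macrophage markers were also lowest in sFD17, and their part in the Cebpa values was not tested.

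Cebpb, the inflammatory C/EBP factor, lies at chr2:167688915-167690418 on the plus strand and had 58103 counts in Ctrl, 47498 with TP5, 51623 with sFD17 and 51926 with FR17. Its levels were 3440, 2708, 3912 and 2262 CPM, highest in sFD17 and lowest in FR17. FR17 was lower than Ctrl by a log2 fold change of −0.60 (−0.62 to −0.59) and TP5 by −0.35 (−0.36 to −0.33), and both remained below 0 under the 4 scalings. The FR17 value was −0.36 by library size and −0.31 by neutrophil markers, under the 1.5-fold limit in both. sFD17 was at 0.19 (0.17 to 0.20), a direction that flipped to −0.03 by library size and −0.22 by neutrophil markers.

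Cebpd, which acts with Cebpb in inflammation, lies at chr16:15887286-15891031 on the plus strand and followed Cebpb. It had 3003, 2595, 2594 and 3055 counts in Ctrl, TP5, sFD17 and FR17, or 178, 148, 197 and 133 CPM. The log2 fold changes were −0.26 with TP5 (−0.34 to −0.19), 0.14 with sFD17 (0.07 to 0.22) and −0.42 with FR17 (−0.49 to −0.34). As for Cebpb, the sFD17 value flipped, to −0.07 by library size and −0.26 by neutrophil markers, and the FR17 value shrank to −0.17 and −0.12.

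Spi1 encodes PU.1 and spans chr2:91082390-91115756 on the plus strand. It had 14474 counts in Ctrl, 13453 with TP5, 13316 with sFD17 and 14686 with FR17, or 857, 767, 1009 and 640 CPM, in the order seen for Cebpb and Cebpd. Its log2 fold change was −0.16 with TP5 (−0.19 to −0.13), 0.24 with sFD17 (0.20 to 0.27) and −0.42 with FR17 (−0.45 to −0.39). The sFD17 value flipped to −0.17 by neutrophil markers and was 0.02 by library size, and the FR17 value shrank to −0.12 and −0.18. The neutrophil markers were likewise highest in sFD17 and lowest in FR17. So were the summed monocyte markers, at 1.10 and 0.882 relative to Ctrl, though 7 of 10 single monocyte markers were higher in FR17 than in Ctrl. The part of either list in the values of Cebpb, Cebpd and Spi1 was not tested.

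Runx1, a factor of early blood formation that spans chr16:92601466-92826149 on the minus strand, varied little with TMM scaling. Its counts were 2250, 2323, 1484 and 3131 in Ctrl, TP5, sFD17 and FR17, or 133, 132, 112 and 136 CPM, with sFD17 alone below the other libraries. The log2 fold change in sFD17 was −0.24 (−0.34 to −0.15), and it stayed negative under all 4 scalings. It deepened to −0.46 by library size and to −0.65 by neutrophil markers, the latter past 1.5-fold. TP5 at −0.01 (−0.09 to 0.08) and FR17 at 0.03 (−0.04 to 0.11) had counting intervals that held 0. By library size the sign of TP5 flipped to 0.04 and FR17 stood at 0.28.

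Gfi1, a repressor that favors the neutrophil over the monocyte fate, lies at chr5:107716657-107726036 on the minus strand and had few counts. There were 100 in Ctrl, 107 with TP5, 79 with sFD17 and 144 with FR17, or 5.92, 6.10, 5.99 and 6.27 CPM, and all 4 counting intervals overlapped. Log2 fold changes were 0.04 with TP5 (−0.36 to 0.45), 0.02 with sFD17 (−0.43 to 0.46) and 0.08 with FR17 (−0.29 to 0.47). The sFD17 value flipped to −0.20 by library size and −0.38 by neutrophil markers. A difference within these intervals was not detectable at this depth.

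Klf4 lies at chr4:55527143-55532466 on the minus strand and had 4698 counts in Ctrl, 4767 with TP5, 2743 with sFD17 and 6197 with FR17. The levels were 278, 272, 208 and 270 CPM, with sFD17 below 3 nearly level libraries. The log2 fold change in sFD17 was −0.42 (−0.49 to −0.35), and it deepened to −0.64 by library size and −0.83 by neutrophil markers. TP5 was at −0.03 (−0.09 to 0.03) and FR17 at −0.04 (−0.10 to 0.01), and these flipped to 0.02 and 0.20 by library size.

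Id2, at chr12:25093799-25097140 on the minus strand, had the same course. Its counts were 1734, 1850, 1045 and 2251 in Ctrl, TP5, sFD17 and FR17, or 103, 105, 79.2 and 98.1 CPM, again with sFD17 alone lower. The log2 fold change was −0.37 in sFD17 (−0.49 to −0.26), and −0.59 by library size and −0.78 by neutrophil markers. TP5 at 0.04 (−0.06 to 0.13) and FR17 at −0.07 (−0.16 to 0.03) had intervals that held 0, with FR17 flipping to 0.18 by library size.

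Klf2, at chr8:72319033-72321656 on the plus strand, was the factor with TP5 alone lower. It had 7958 counts in Ctrl, 5599 with TP5, 6554 with sFD17 and 10546 with FR17, or 471, 319, 497 and 459 CPM. The log2 fold change in TP5 was −0.56 (−0.61 to −0.51), rank 33 from the lowest of the 692 transcription factor genes, and it stayed between −0.51 and −0.60 under the 4 scalings. sFD17 was at 0.08 (0.03 to 0.12) and FR17 at −0.04 (−0.08 to 0.01), and these flipped by library size, to −0.14 and 0.21. Klf2 is also a gene of endothelium, and 10 endothelial markers had summed levels of 0.805, 1.08 and 1.31 relative to Ctrl in TP5, sFD17 and FR17. Their part in the Klf2 values was not tested.

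FR17 and sFD17 differ by the scrambled TP5 sequence and were given at the same dose and times. Cebpa was higher in FR17 than in sFD17, by 0.96 on the log2 scale (0.87 to 1.05), and by 1.42 by library size and 1.66 by neutrophil markers. Klf4 at 0.38 (0.31 to 0.44), Id2 at 0.31 (0.20 to 0.42) and Runx1 at 0.28 (0.19 to 0.37) were also higher in FR17 under each scaling, and by neutrophil markers they stood at 1.08, 1.01 and 0.98, where Klf4 and Id2 passed 2-fold. Cebpb was lower in FR17, at −0.79 (−0.81 to −0.77), and still lower at −0.08 by neutrophil markers. Spi1 at −0.66 (−0.69 to −0.62), Cebpe at −0.59 (−0.74 to −0.44) and Cebpd at −0.56 (−0.64 to −0.49) were lower too, yet by neutrophil markers they flipped to 0.05, 0.12 and 0.14. Klf2, at −0.11 (−0.16 to −0.07), flipped to 0.35 by library size. Gfi1 was at 0.07 (−0.34 to 0.48), and at 0.52 by library size and 0.76 by neutrophil markers, the latter past 1.5-fold.

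FR17 and TP5 share the TP5 sequence and differ by the assembling backbone and linker. Klf2 at 0.53 (0.48 to 0.57) and Cebpa at 0.43 (0.36 to 0.50) were higher in FR17, and Cebpe at −0.52 (−0.67 to −0.38) was lower, each with the same sign under the 4 scalings. Cebpb at −0.26 (−0.28 to −0.24), Spi1 at −0.26 (−0.30 to −0.23) and Cebpd at −0.15 (−0.23 to −0.08) were lower in FR17, and they flipped to 0.07, 0.07 and 0.18 by neutrophil markers. Between sFD17 and TP5, Klf2 at 0.64 (0.59 to 0.69) and Cebpb at 0.53 (0.51 to 0.55) were higher in sFD17. Cebpa at −0.53 (−0.62 to −0.43), Id2 at −0.41 (−0.52 to −0.30) and Klf4 at −0.39 (−0.46 to −0.32) were lower in sFD17. Those 5 kept their sign under the 4 scalings. Cebpe was close in the 2 libraries, at 0.06 (−0.08 to 0.21), and flipped to −0.20 by library size.

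Ratios of counts within a library do not depend on scaling, and they were added after the levels had been seen. Cebpa had 5.69 counts per 100 of Cebpb in Ctrl, 5.39 with TP5, 2.59 with sFD17 and 8.69 with FR17. The balance of these C/EBP factors thus lay lowest in sFD17 and highest in FR17, with a counting interval of 2.45 to 2.73 in sFD17 and 8.43 to 8.96 in FR17. Per 100 counts of Cebpa, Cebpe had 14.1 in Ctrl, 33.8 with TP5, 50.9 with sFD17 and 17.5 with FR17. Relative to Cebpb instead, Cebpe had 0.804, 1.82, 1.32 and 1.52 counts per 100, so that Ctrl was lowest by either measure. Cebpd per 100 of Cebpb moved only from 5.02 to 5.88, and Spi1 per 100 of Cebpb from 24.9 to 28.3. Klf4 per 100 of Klf2 was 59.0 in Ctrl, 85.1 with TP5, 41.9 with sFD17 and 58.8 with FR17. Cebpa per 100 of Spi1 was 22.9, 19.0, 10.0 and 30.7 in the 4 libraries. The libraries hold RNA of mixed cells, and the part of the mixture in these ratios was not tested.

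**Figure D3:**
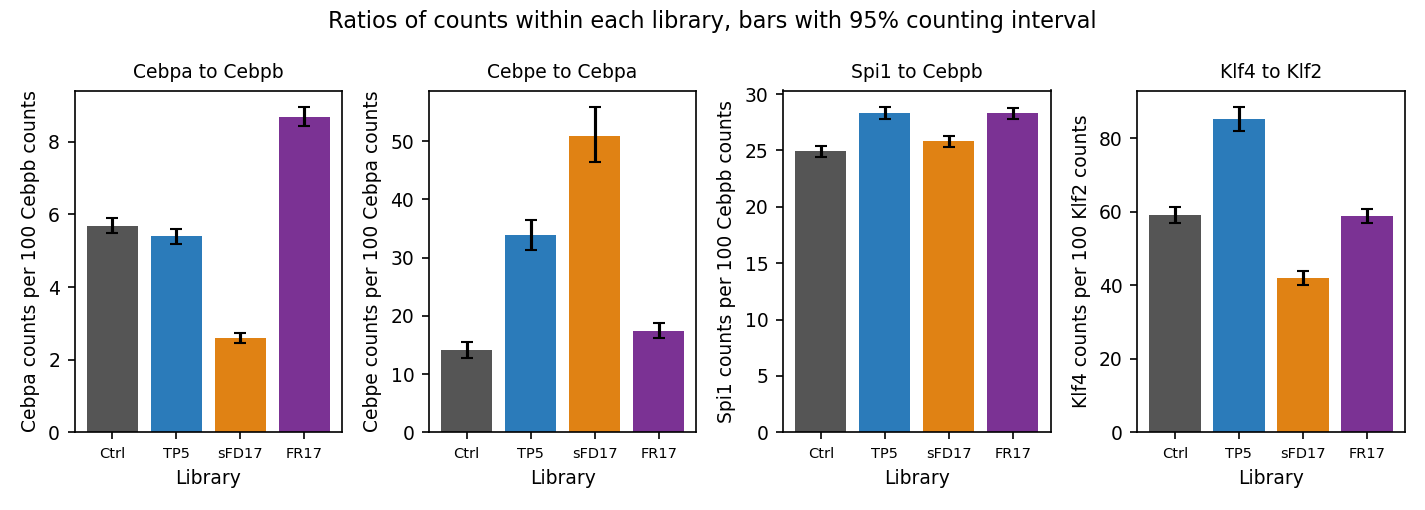
Counts of one factor per 100 counts of another within each library, for 4 pairs, as bars with the 95% counting interval. Cebpa to Cebpb runs from 2.59 in sFD17 to 8.69 in FR17, Cebpe to Cebpa from 14.1 in Ctrl to 50.9 in sFD17, and Spi1 to Cebpb stays between 24.9 and 28.3.

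The courses of the factors over the 4 libraries fell close together in places. By the distance between log2 levels, each centred on its own mean, Klf4 and Id2 were nearest at 0.07, then Cebpd and Spi1 at 0.10, Klf4 and Runx1 at 0.13 and Id2 and Runx1 at 0.14. Cebpa and Cebpe were farthest apart at 1.48. Likeness was also measured to 93 other myeloid factors with at least 50 counts in 1 library, and Rxra, a nuclear receptor, lay 0.31 from Cebpa, with 1213, 1116, 666 and 1983 counts in Ctrl, TP5, sFD17 and FR17. Spi1 lay nearest to Bcl6 at 0.05 and Rara at 0.06, Cebpd to Nfil3 at 0.06 and Fos at 0.08, and Cebpb to Ddit3 at 0.11 and Foxo3 at 0.12. Klf4, Id2 and Runx1 each lay nearest to Cebpg, a C/EBP family member without an activation domain, at 0.17, 0.19 and 0.17, and next to Mitf, Mitf and Lyl1. Cebpe had no close neighbor, with Erg at 0.30 and Stat5a at 0.34, and Klf2 had Klf6 at 0.26 and Meis1 at 0.26. Gfi1 lay nearest to Lmo2 at 0.14 and Lyl1 at 0.19. All of these distances rest on 4 libraries and on TMM scaling.

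**Figure D4:**
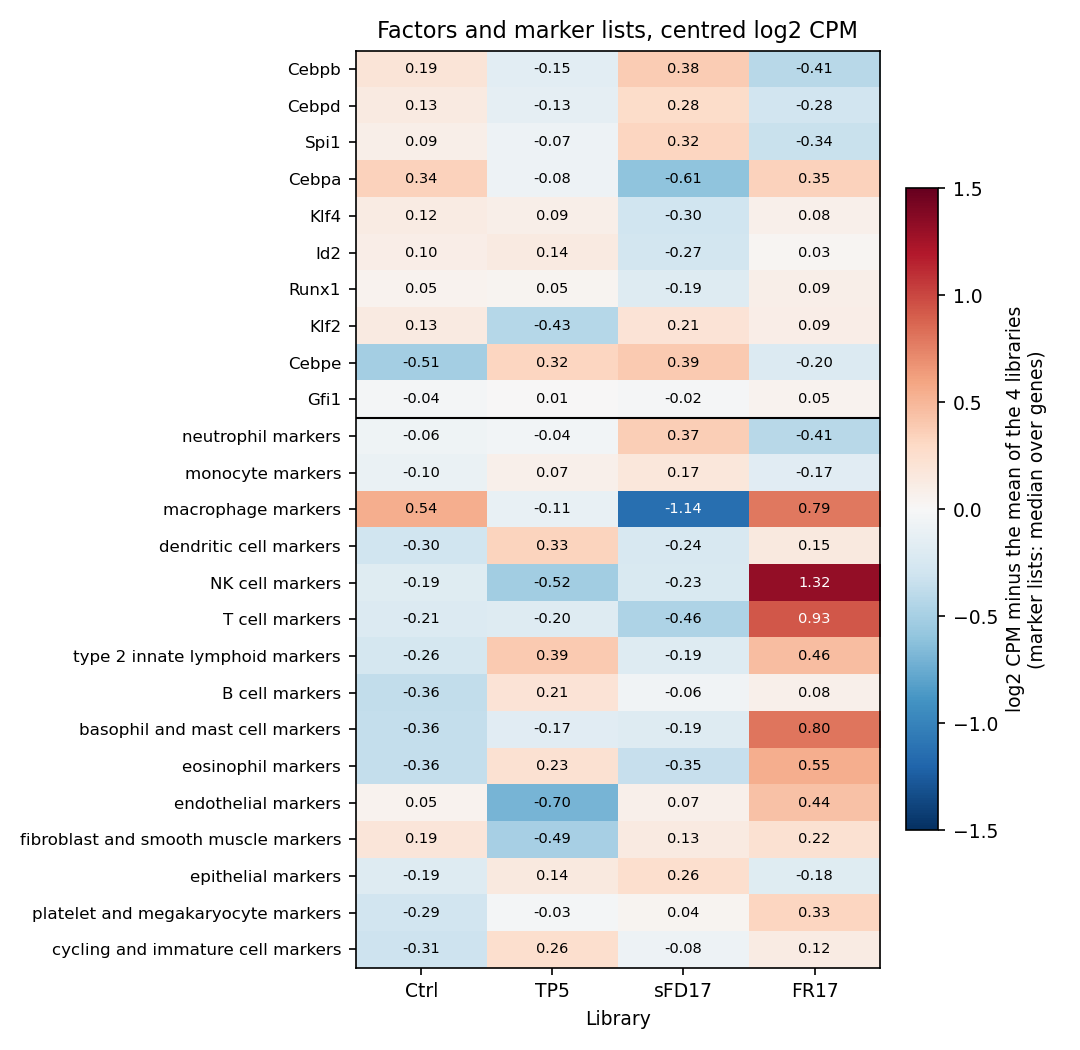
Log2 CPM of the 10 factors, each minus its mean over the 4 libraries, above the medians of 15 marker lists centred in the same way; the number in each cell is the value plotted as color. Cebpb, Cebpd and Spi1 are highest in sFD17 and lowest in FR17, as are the neutrophil and monocyte marker rows. Cebpa is lowest in sFD17, where the macrophage marker row is also lowest at −1.14.

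The range of a factor, its highest minus its lowest log2 level, had a median of 0.60 over the 10 factors, beside 0.62 over 692 transcription factor genes and 0.61 over all 11989 genes with the same minimum. Cebpa had the widest range of the 10, at 0.96, and stood at rank 149 among the transcription factor genes. Cebpe followed at 0.90 and rank 173, Cebpb at 0.79 and rank 240, and Runx1 at 0.28 ranked 607. The spread of these lineage factors was therefore that of the median gene.

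**Figure D5:**
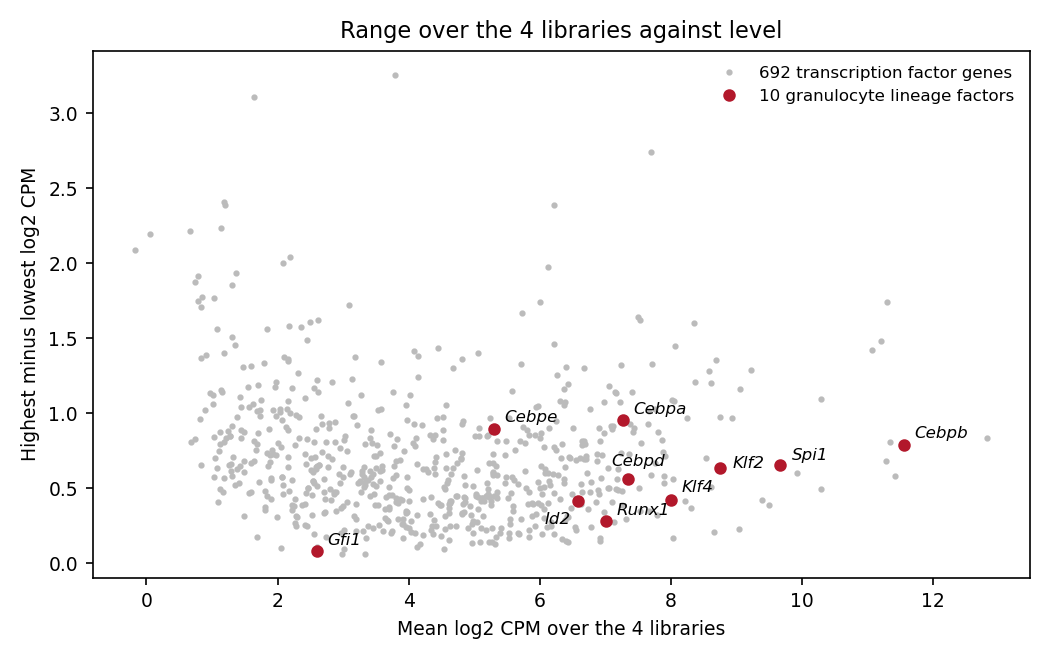
Highest minus lowest log2 CPM over the 4 libraries against mean log2 CPM, for 692 transcription factor genes (gray) and the 10 lineage factors (red). Cebpa and Cebpe reach 0.96 and 0.90, and Gfi1 lies at 0.08, a range within its counting error with TMM scaling.

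Genes that these factors are known to control were read next to them. Of 11 tested primary granule genes, the proteins of early neutrophil precursors, 4 were at least 2-fold higher with TP5, 2 with sFD17 and 1 with FR17, and Ctsc was 2-fold lower in sFD17. Their median log2 fold change was 0.67, 0.20 and 0.39, beside 0.00, −0.03 and 0.02 over all tested genes, and in sFD17 it flipped to −0.01 by library size. Mpo, the myeloperoxidase gene, had 38 counts in Ctrl, 148 with TP5, 75 with sFD17 and 141 with FR17, a log2 fold change of 1.86, 1.29 and 1.40. Elane, neutrophil elastase, had 35, 91, 59 and 91 counts, with 1.28, 1.07 and 0.90. The sFD17 calls ended by neutrophil markers, for Mpo at 0.90 and for Elane at 0.67. These counts are low, and Ctsc, which activates granule proteases and is abundant in macrophages, had 8452, 6621, 3010 and 13394.

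Secondary and tertiary granule genes, which C/EBPε drives, had a median log2 fold change of 0.19 with TP5, 0.43 with sFD17 and −0.03 with FR17 over 25 genes, where the FR17 value flipped to 0.21 by library size. None was 2-fold higher in a peptide library than in Ctrl, and 1 was 2-fold lower in TP5 (Lrg1, at −1.01, and −0.95 by library size, where its call ended) and 1 in sFD17 (Chil3). Ltf, lactoferrin, had 35104 counts in Ctrl, 64176 with TP5, 41003 with sFD17 and 64504 with FR17, at log2 fold changes of 0.82, 0.58 and 0.44. Camp, the cathelicidin, had 13348, 25703, 14744 and 26153, at 0.89, 0.50 and 0.53. Ngp, neutrophilic granule protein, was at 0.78, 0.52 and 0.31. Ltf, Camp and Ngp stayed above Ctrl under the 4 scalings, but the list as a whole was split. In TP5 17 of the 25 were higher and 8 lower, in sFD17 22 and 3, and in FR17 10 and 15, all with TMM scaling. The sFD17 median shrank to 0.21 by library size and 0.02 by neutrophil markers. Ltf, Camp and Ngp are themselves among the neutrophil markers, so the latter value is not independent of this list. Lower in FR17 were Adam8 at −0.87 and Slpi at −0.83. Chil3, which is made by macrophages as well, was at −1.48 in sFD17 and 0.54 in FR17.

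Of 25 PU.1 target genes, 4 were higher and 21 lower in TP5 than in Ctrl, with a median log2 fold change of −0.14 and none past 2-fold. In sFD17 16 were higher and 9 lower, with a median of 0.10, and Msr1, a scavenger receptor of macrophages, was past 2-fold at −1.61. In FR17 7 were higher and 18 lower, with a median of −0.19. By library size the medians of sFD17 and FR17 flipped to −0.11 and 0.05. Csf3r, the G-CSF receptor, had 83644 counts in Ctrl, 62645 with TP5, 78491 with sFD17 and 55305 with FR17, and was past 2-fold in FR17 at −1.04, a call that ended by library size at −0.79.

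Of the 19 tested C/EBPβ and C/EBPδ target genes, in TP5 1 was 2-fold higher and 2 lower, in sFD17 3 higher and 4 lower, and in FR17 0 higher and 2 lower, with medians of −0.15, 0.42 and −0.50. The sFD17 median shrank to 0.21 by library size and 0.02 by neutrophil markers, and the FR17 median to −0.27 and −0.22. This list shares S100a8 and S100a9 with the neutrophil markers. Saa3, an acute phase protein, had 2053 counts in Ctrl, 652 with TP5, 896 with sFD17 and 1914 with FR17, and was at −1.71 in TP5. Nos2, inducible nitric oxide synthase, had 13, 10, 134 and 12 counts and was at 3.54 in sFD17. Csf3, the gene of G-CSF, had 326, 412, 706 and 221 counts and was at 1.47 in sFD17. Among the 4 lower in sFD17 were Ccl2 at −1.58, Il6 at −1.20 and Il10 at −1.05. The 2 calls in FR17 were Arg1 at −1.14 and Cxcl2 at −1.03, and both ended by library size, at −0.90 and −0.79.

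GFI1-repressed genes had no call at 2-fold against Ctrl among 10 tested, with medians of −0.06, 0.07 and −0.14, the latter 2 flipping to −0.14 and 0.09 by library size. Csf1, a monocyte growth factor, was the farthest in FR17 at −0.98. Of 10 KLF2 and KLF4 target genes, Il10 was past 2-fold in TP5 at −1.19 and in sFD17 at −1.05, and none was in FR17. S1pr1, a lymphocyte egress receptor and a target of KLF2, had 502 counts in Ctrl, 389 with TP5, 277 with sFD17 and 948 with FR17. The list's median was −0.18 with TP5, 0.25 with sFD17 and 0.14 with FR17, and in sFD17 it flipped to −0.16 by neutrophil markers.

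Partners and regulators of the factors were mostly within 2-fold of Ctrl. Of 25 tested, none was 2-fold higher than in Ctrl and only Wwp1, a ubiquitin ligase, was 2-fold lower, at −1.35 in sFD17, with 941, 615, 288 and 1289 counts. In FR17 against sFD17 1 of the 25 was 2-fold higher and 4 were lower, beside 22.1% of all tested genes past 2-fold either way, and their median of −0.31 flipped to 0.15 by library size and 0.40 by neutrophil markers. Trib1, which marks C/EBPα for degradation, had 15095 counts in Ctrl, 16157 with TP5, 17432 with sFD17 and 13973 with FR17. Its log2 fold changes were 0.04, 0.56 and −0.55, beside −0.42, −0.95 and 0.01 for Cebpa. These are RNA values, whereas the degradation acts on protein, and a link between the 2 genes was not tested. Trib1 was chosen after its values were seen. Cbfb, the partner of RUNX1, was at 0.27, −0.04 and 0.14. Of 24 upstream receptors and signal transducers, 1 was 2-fold higher in TP5 and 1 lower, 2 were higher in sFD17 and 1 lower, and 1 was lower in FR17, with medians of −0.10, 0.26 and −0.28, of which sFD17 and FR17 flipped to −0.14 and 0.01 by neutrophil markers. By library size the sFD17 call of Cish ended, from 1.15 to 0.93, as did the FR17 call of Csf3r, from −1.04 to −0.79. Flt3, the receptor of early progenitors and dendritic cells, had 271, 688, 276 and 497 counts and was at 1.28 in TP5.

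Of 95 other myeloid transcription factors, 1 was 2-fold higher and 1 lower in TP5, 3 higher and 2 lower in sFD17, and 3 higher and 1 lower in FR17. Maf, a macrophage factor, was lower in TP5 at −1.01 and in sFD17 at −1.90, with 1933, 996, 403 and 2770 counts. Tfec, also of macrophages, was at −2.54 in sFD17, and Fosl1, an AP-1 member, at 1.38. Gata3 and Ikzf2, factors of lymphoid cells, were at 1.85 and 1.19 in FR17, and Mxd1, a MYC antagonist abundant in neutrophils, at −1.03, a call that ended by library size at −0.79. Likewise the call of Maf in TP5 ended by library size at −0.96, and that of Fosl1 by neutrophil markers at 0.97. In FR17 the summed NK cell markers were 2.79 and the T cell markers 1.91 relative to Ctrl.

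The other marker lists, as summed levels relative to Ctrl in TP5, sFD17 and FR17, moved as follows. Monocyte markers were at 0.998, 1.10 and 0.882, and dendritic cell markers at 1.296, 0.738 and 1.20. B cell markers were at 1.57, 1.14 and 1.36, NK cell markers at 0.884 and 0.967 in TP5 and sFD17, and T cell markers there at 0.874 and 0.677. Type 2 innate lymphoid markers were at 1.48, 0.870 and 1.39, basophil and mast cell markers at 1.22, 1.58 and 1.93, and eosinophil markers at 0.823, 0.648 and 1.16. Fibroblast and smooth muscle markers were at 0.635, 0.950 and 1.05, epithelial markers at 1.47, 1.98 and 1.19, and platelet and megakaryocyte markers at 0.594, 0.535 and 1.25. A summed level can follow 1 gene. Pf4 made up 73.5% of the platelet sum in Ctrl, Siglecf 88.9% of the eosinophil sum, Scgb1a1 79.6% of the epithelial sum and Cd74 49.8% of the dendritic cell sum. The median log2 fold change over single markers went the other way for platelets in TP5 (0.29, 5 of 7 higher) and sFD17 (0.24, 6 of 7), for eosinophils in TP5 (0.65, 5 of 6) and sFD17 (0.01, 3 of 6) and for dendritic cells in sFD17 (0.13, 7 of 12). It also did for monocytes in TP5 (0.27, 7 of 10) and FR17 (0.09, 7 of 10), NK cells in sFD17 (0.05, 5 of 10), T cells in TP5 (0.10, 7 of 12) and type 2 innate lymphoid cells in sFD17 (0.13, 4 of 7). In the platelet list 1 of 8 markers was at 0 in all 4 libraries, and no marker of the other lists was at 0. The part of these lists in the values of the factors was not tested.

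Promoter sequence was read for the factors that moved together, since Cebpa, Klf4, Id2 and Runx1 were all lowest in sFD17, and for Cebpb, which was highest there. The RefSeq promoters used here, on GRCm38.p6, gave 9 windows for 7 of the 10 factors, and those of Cebpd, Cebpe and Spi1 were not analysed here. The last 150 bases before the start site are printed 5′ to 3′ on the gene's strand for 4 windows that hold no exon of the gene. Capitals mark letters of the motifs searched on both strands: TTNNGNAA for C/EBP, GAGGAA for PU.1, CACCC for KLF factors, TGTGGT for RUNX, AAATCA for GFI1, CCAAT for the CCAAT box and TATAAA for the TATA box, none of which contains another.
Cebpa, chr7:35119143-35119292, plus strand: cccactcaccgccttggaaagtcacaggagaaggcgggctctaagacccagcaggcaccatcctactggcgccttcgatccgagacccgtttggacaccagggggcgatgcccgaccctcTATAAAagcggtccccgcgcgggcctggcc
Klf4, chr4:55532476-55532625, minus strand: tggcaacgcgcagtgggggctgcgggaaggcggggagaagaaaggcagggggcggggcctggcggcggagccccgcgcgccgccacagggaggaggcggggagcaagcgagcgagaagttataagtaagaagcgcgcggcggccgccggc
Runx1 (the start site inside the gene), chr16:92697330-92697479, minus strand: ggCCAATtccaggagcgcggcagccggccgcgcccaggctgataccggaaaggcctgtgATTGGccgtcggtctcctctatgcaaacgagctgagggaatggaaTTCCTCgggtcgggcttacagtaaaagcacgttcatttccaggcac
Cebpb, chr2:167688765-167688914, plus strand: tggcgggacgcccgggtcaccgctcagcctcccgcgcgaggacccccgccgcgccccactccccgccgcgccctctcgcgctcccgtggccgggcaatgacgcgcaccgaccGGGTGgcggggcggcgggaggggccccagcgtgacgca

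Within 250 bases before the start, the Cebpa promoter held a TATA box 30 bases before it and 1 KLF motif, and neither a C/EBP nor a PU.1 motif. The TATA letters are found in 12.4% of 32851 RefSeq promoters. Klf4 held none of the 7 motifs. The inner Runx1 promoter held a PU.1 motif 46 bases before the start, 2 KLF motifs and 2 CCAAT boxes, and the outer one held 2 CCAAT boxes. Id2 held 3 CCAAT boxes and 2 KLF motifs. PU.1 letters occur in 23.3% of promoters, KLF letters in 52.0% and the CCAAT letters in 33.8%. Cebpb held 2 KLF motifs, and Klf2 held 1. A C/EBP motif, present in 36.8% of promoters, was found in 1 of the 9 windows, at the outer start of Gfi1, 143 bases before it. The RUNX letters, in 14.0% of promoters, and the GFI1 letters, in 12.4%, were in none of the 9. Since Klf4 held none, no motif of this search was shared by the 4 factors lowest in sFD17.

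Some counts can be shared with genes on the opposite strand, since the strand setting of the counting is not given in the sources used here. Exons of Tmem189 cover 312 bases of the 1504 of Cebpb, those of Spidr 562 of the 3746 of Cebpd, and those of Gm26626 106 of Runx1. Tmem189 had 1796 to 2528 counts, against at least 47498 of Cebpb, and Spidr 744 to 825, against at least 2594 of Cebpd. Gfi1 shares 101 bases with A430072P03Rik, which had 7 to 15 counts, and Cebpa 51 with Gm45091, which had 1 to 6.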

How the data were processed

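mRNA of CD11b+Ly6g+ MDSCs was sequenced in 4 libraries, 1 for each of the Ctrl, TP5, sFD17 and FR17 groups. The table deposited by the authors holds unnormalized read counts for each gene and the length of its exons in bases. The submitters' processing notes name HISAT2 2.0.5, StringTie 1.3.3b, featureCounts 1.5.0-p3, edgeR 3.18.1 and the build GRCm38.p6, without their roles. Of the 54409 genes that GENCODE M21 also holds, 53499 had the same coordinates. There were 0 columns without a sample.

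The counts were scaled with TMM over the 16369 genes with at least 10 counts in 1 library (edgeR 4.0.16, R 4.3.3), and log2 fold changes were differences of log2 CPM with a prior count of 2. With 1 library per group the quasi-likelihood test has no residual degrees of freedom, so a gene was called at a 2-fold change and no p is given in the results. Intervals of a pair of counts are exact at 95%. CPM per kilobase used the deposited lengths. The procedure was tested on simulated data. Figures and counts used Python 3.11.15, pandas 2.3.3, numpy 2.4.6, scipy 1.17.1 and matplotlib 3.10.9. The alternatives were DESeq2 1.42.0 size factors, library size alone, neutrophil marker scaling, other filters, a prior count of 0.5, a 1.5-fold limit, edgeR's exact test and DESeq2's Wald test.

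The 10 factors were all named. In the other lists, 9 of pathways and targets and 15 of markers, genes were named from the 3 with the largest change per peptide library and 50 or more counts in either library. For each factor the 2 nearest of the other myeloid factors were named. Some genes that these rules select are left out of the text. Cbfb, Trib1, further values of named genes in other comparisons, and the count ratios were added after values were seen. The marker lists, the other lists and the 10 factors themselves were chosen with earlier results of these data known. Promoters are from RefSeq on GRCm38.p6.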

Additional observations from a re-analysis of the deposited data

How the results depend on the processing

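Leaving out a replicate is not possible with 1 library per group, and no result has a replicate check. No paired analysis was possible because each group has 1 library. The depth limits Gfi1, with 79 to 144 counts, and the primary granule genes Mpo and Elane. With a 2-fold limit, 0 of 10 factors were called in each of the 6 comparisons. Library size alone gave 1 in sFD17 against Ctrl and 1 in FR17 against sFD17, both Cebpa. Neutrophil marker scaling gave 1 (Cebpa) and 3 (Cebpa, Klf4 and Id2) in these comparisons. Over all tested genes these comparisons had 2114 and 4991 calls by library size and 2716 and 6537 by neutrophil markers, of 16369. edgeR's exact test, at an unadjusted p under 0.05 with the dispersion of the 4 libraries as 1 group, gave 1 in sFD17 against Ctrl (Cebpe, unadjusted p = 0.0495 by edgeR's exact test and 0.0869 by DESeq2's Wald test). The 1.5-fold limit gave 1, 2, 1, 4, 0 and 1 in TP5, sFD17 and FR17 against Ctrl, FR17 against sFD17, FR17 against TP5 and sFD17 against TP5. With library size alone this limit, a pairing added after seeing the data, gave 1, 4, 0, 4, 2 and 3. Of the 60 fold changes of the factors, 2 had the other sign with DESeq2 size factors, 14 by library size, 18 by neutrophil markers and 0 with a prior count of 0.5; 3 of the 18 were at least 0.3 in size with TMM. 

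Over all tested genes, in the same order of comparisons, the 2-fold limit called 1339, 1930, 1227, 3613, 1624 and 2026 genes. No filter on low counts gave 3570, 4166, 2930, 5661, 3412 and 4283, and 10 counts in every library gave 494, 916, 454, 2322, 718 and 978. The 1.5-fold limit gave 3409, 4751, 3714, 7534, 4006 and 5200. edgeR's exact test gave 324, 791, 307, 2073, 601 and 760, and DESeq2's Wald test 63, 192, 40, 1138, 121 and 139. Fewer or more genes tested accounts for the filters by construction; the cause of the other differences was not tested.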
